A study of Mus musculus with 6 samples.

Results

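The matrix metalloproteinase (Mmp), Adam, Adamts, Adamts-like (Adamtsl) and Timp genes were taken from a count table of NMuMG cells by their symbols, as every gene whose symbol is one of these family names followed directly by a number. This gave 84 of the 21240 genes in the table, made up of 33 Adam, 19 Adamts, 5 Adamtsl, 23 Mmp and 4 Timp genes. NMuMG is an epithelial line derived from normal mouse mammary gland. Cells were grown with serum and insulin and kept for 6 h without serum and insulin. After this, TGFβ1 (5 ng/ml) was added for 2 h or 12 h, or vehicle (BSA with HCl in the protocol, with Tris-HCl in the sample labels) for 2 h. The 6 libraries of stranded total RNA are 2 biological replicates per group, and the labels do not say whether replicates were separate cultures of the same or of different days. Vehicle was sampled at 2 h only, so the comparison of 12 h with vehicle also sets a longer against a shorter time without serum and insulin. The comparison of 12 h with 2 h does so too, and in both the agent and the time cannot be told apart.

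Matrix metalloproteinases are zinc-dependent endopeptidases that cut collagens, laminins, proteoglycans and many other proteins outside the cell. Most are secreted as inactive precursors, while the membrane-type members are anchored at the cell surface. ADAM proteins are membrane-bound and release the outer parts of growth factors, cytokine receptors and adhesion molecules, a process called shedding, whereas ADAMTS proteins are secreted and cut proteoglycans and procollagens. ADAMTS-like proteins share the accessory domains of the ADAMTS proteins and lack the protease. TIMPs are secreted inhibitors of these enzymes, and TIMP3 is held in the matrix and also blocks several ADAM and ADAMTS enzymes. TGFβ induces an epithelial-mesenchymal transition in NMuMG cells, a process in which cell contacts are remodeled and matrix turnover changes.

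A cluster of 10 Mmp genes lies on chromosome 9 (7272514 to 7699585 in mm9, the build of the counts). Among them are collagenase and stromelysin genes and the macrophage elastase gene. The promoters of these genes are known for AP-1 sites, which bind Fos and Jun proteins. The AP-1 consensus has C or G as its middle base. The looser letters TGANTCA, with any base at N, read the same on both strands. They were searched in windows of 250 bases before to 50 bases after each start in the RefSeq promoter table (GRCm38.p6). They were found in 7.81% of all 32851 promoters, or for 8.97% of the 27025 genes (a gene can have several promoters), and for 8 of the 10 genes in the cluster (Mmp13, Mmp12, Mmp1b, Mmp3, Mmp1a, Mmp10, Mmp20 and Mmp7). Of the 53 members with a promoter in the table, 13 held these letters, and 31 members had no entry. In Mmp20, Adam25 and Adam20 the match was TGAATCA, which is outside the AP-1 consensus. The SMAD palindrome GTCTAGAC was in 0.213% of all promoters and in 0 of the 53. The 120 bases before the start of 5 cluster genes are shown because those genes share the letters and have very different counts, which are described further down. Each was read from the plus strand of chromosome 9 of NCBIM37, where the whole stretch has 1 exact match, and the capitals mark the match to TGANTCA.
Mmp10 (chr9:7502222-7502341): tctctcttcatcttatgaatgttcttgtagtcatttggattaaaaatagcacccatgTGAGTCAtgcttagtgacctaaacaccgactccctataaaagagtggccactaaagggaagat
Mmp12, second start in the table (chr9:7347254-7347373): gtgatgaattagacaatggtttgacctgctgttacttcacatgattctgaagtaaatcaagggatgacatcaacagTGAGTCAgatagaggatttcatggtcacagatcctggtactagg
Mmp13 (chr9:7272394-7272513): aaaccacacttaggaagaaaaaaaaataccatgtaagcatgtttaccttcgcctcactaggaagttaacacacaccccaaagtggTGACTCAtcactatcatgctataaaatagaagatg
Mmp3 (chr9:7445702-7445821): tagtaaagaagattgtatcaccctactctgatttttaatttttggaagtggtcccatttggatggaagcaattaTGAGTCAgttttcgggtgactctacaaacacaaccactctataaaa
Mmp1a (chr9:7464021-7464140): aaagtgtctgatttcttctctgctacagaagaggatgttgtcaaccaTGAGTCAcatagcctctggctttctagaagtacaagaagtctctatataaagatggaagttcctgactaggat
Counting the base before the start as -1, the match begins at -63 in Mmp10, -44 in Mmp12, -35 in Mmp13, -46 in Mmp3 and -73 in Mmp1a. The other start that the table gives for Mmp12 (window at chr9:7344277-7344396) has no match in the 120 bases before it. A match is only a run of letters, and no binding was measured here.

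Depth was 14705886 to 23786993 counts per library, and the 84 genes together took 0.165% to 0.172% of the counts with vehicle, 0.188% at 2 h and 0.204% to 0.218% at 12 h. Values below are CPM (read counts scaled to a common library size, as edgeR defines them) adjusted by TMM factors, and tests are edgeR's quasi-likelihood tests with Benjamini-Hochberg adjustment over the 11080 genes that reached 2 CPM in 2 or more libraries. Of the markers listed for the labelled epithelial type, Cdh1, Krt8, Krt18, Krt19 and Ocln passed this filter, while Cldn3 and Cldn7 had at most 7 counts and Epcam at most 16 in any library. The summed level of the 8 epithelial markers was 5022 to 5861 CPM with vehicle, 6513 to 6520 at 2 h and 10370 to 10414 at 12 h. At 12 h these markers went in different directions, since Krt8 (log2FC 1.63, adjusted p = 0.000114) and Krt18 (1.53, adjusted p = 0.000275) rose and carried the sum, whereas Krt19 fell from 1845 and 1664 to 420 and 489 CPM (log2FC -1.95, adjusted p = 0.000103), and Ocln (-0.52, adjusted p = 0.117) and Cdh1 (-0.07, adjusted p = 0.762) did not pass. The summed level of 6 fibroblast markers was 3.50 to 4.00, 8.49 to 8.92 and 14.6 to 14.8 CPM in the same order. Of these, Col1a1 and Pdgfrb were higher. Pdgfra did not pass at 2 h (log2FC -0.01, adjusted p = 0.985) or 12 h (0.09, adjusted p = 0.846). Thy1 was at 0 counts in all libraries, and Dcn and Lum were at 0 or 1 count at 12 h. The sum of 4 endothelial markers was 0.18 to 0.25 CPM with vehicle and 1.74 to 1.95 at 12 h, nearly all of it Cdh5. The sum of the 5 leukocyte markers in the table was 7.38 to 7.70 CPM with vehicle, 7.13 to 7.51 at 2 h and 5.31 to 7.08 at 12 h, with Cd3e at 0 counts and Ptprc at 4 or fewer, and the 3 adipocyte markers summed to at most 0.20 CPM. The part of these markers in the values below was not tested. In bulk RNA, a change in the number of cells of a kind and a change in RNA per cell cannot be told apart.

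Of the 84 members 26 passed the filter, and 5 of the 26 (Mmp24, Mmp12, Mmp10, Adam12 and Timp3) reached it in no vehicle library, so that these had to be higher after TGFβ to be tested at all. The counts over the 26 are therefore a description. After 2 h, 11 of the 26 rose and 2 fell (adjusted p under 0.05), which is 42.3% and 7.69%, beside 9.91% and 5.25% of all genes tested. After 12 h, 13 rose and 6 fell, 50% and 23.1%, beside 21.8% and 21.5% of all genes. The direct comparison of 12 h with 2 h, whose 2 h libraries are those of the first comparison, gave 11 higher and 5 lower members, 42.3% and 19.2% beside 15.2% and 18.9%. Mmp24, Mmp12, Mmp10 and Adam12 reached the filter only in the 12 h libraries, so they had to be higher at 12 h than at 2 h to be tested. With the study's further threshold of an absolute log2FC above 1, 6 members were upregulated and 2 downregulated at 2 h (4.23% and 2.01% of all genes), 12 and 3 at 12 h (8.03% and 11.6%), and 8 and 3 between 2 h and 12 h (4.5% and 9.87%). The median log2FC of the 26 was 0.22 at 2 h and 0.52 at 12 h, and that of all genes tested was -0.01 and 0.02. Both libraries lay above both vehicle libraries for 13 members at 2 h and 15 at 12 h, and below them for 5 and 8, where 28.4%, 39.6%, 27.5% and 37.2% of all genes tested did so in that order. Without vehicle replicate 1 or 2, 6 and 7 members rose at 2 h and 1 fell in each case, and without 2 h replicate 1 4 fell. Without 12 h replicate 1, 3 fell at 12 h and 2 were lower than at 2 h, and without vehicle replicate 2, 4 fell at 12 h. By family, 5 of 9 Mmp genes, 2 of 7 Adam, 2 of 5 Adamts, 0 of 2 Adamtsl and 2 of 3 Timp genes rose at 2 h, and at 12 h 6, 3, 2, 0 and 2 did. The 2 members that fell at 2 h were both Adamts genes, and those that fell at 12 h were 2 Mmp, 1 Adam, 2 Adamts and 1 Adamtsl gene.

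**Figure D1:**
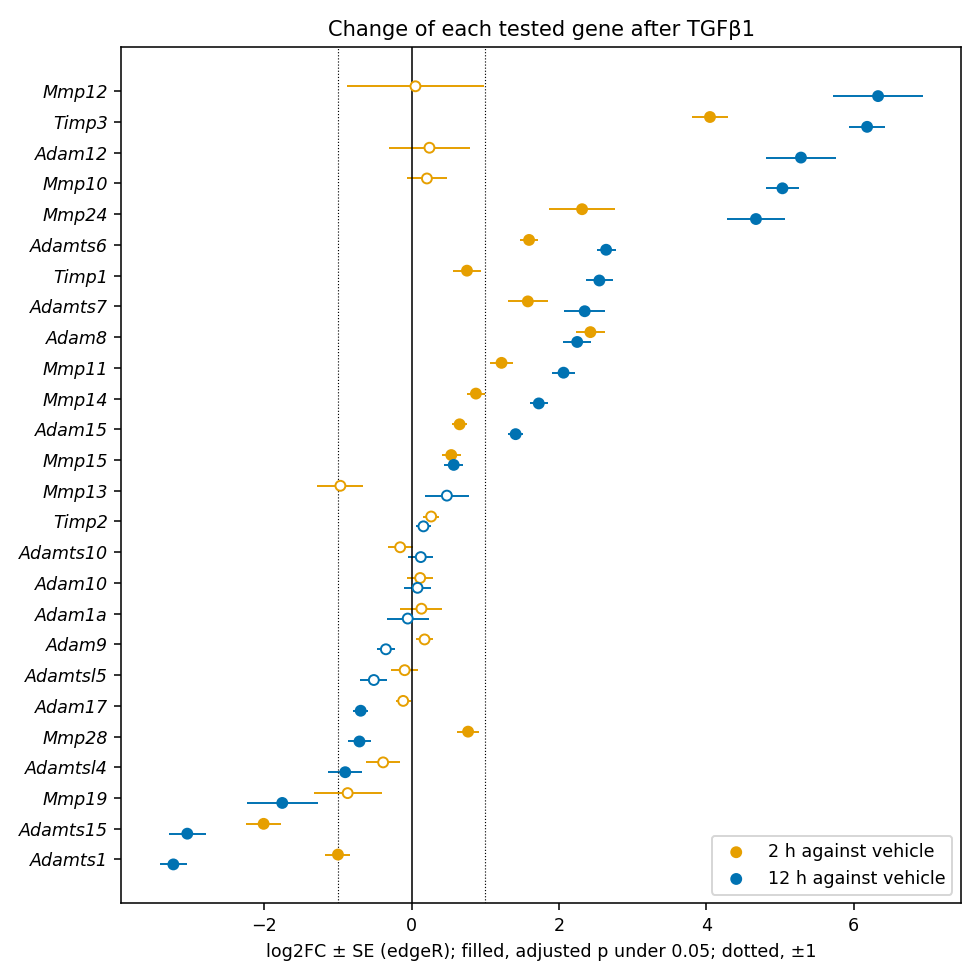
log2FC (horizontal axis, log2 scale) of the 26 tested members at 2 h and at 12 h against vehicle, with bars of 1 standard error of the edgeR fit and filled points where the adjusted p was under 0.05. Mmp12, Timp3, Adam12, Mmp10 and Mmp24 lie above 4 at 12 h, and Adamts1 and Adamts15 lie below -3.

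Among the Mmp genes of membrane-anchored enzymes, Mmp14 was the most abundant and rose at both times. Mmp14 (Entrez 17387, chromosome 14, 55050441 to 55060095) encodes MT1-MMP, a surface collagenase that also activates pro-MMP2. Its level was 117 and 115 CPM with vehicle, 221 and 203 at 2 h, and 349 and 418 at 12 h. The 3 groups did not overlap. The log2FC was 0.87 at 2 h (SE 0.121, adjusted p = 0.00532) and 1.72 at 12 h (SE 0.123, adjusted p = 0.000139), and the 12 h level was also above that at 2 h (log2FC 0.85, SE 0.120, adjusted p = 0.00285). Mmp24 (17391, chromosome 2), which encodes the membrane-type enzyme MT5-MMP, had 0.35 and 0.13 CPM with vehicle, 1.26 and 1.21 at 2 h and 6.44 and 6.31 at 12 h. Every step of this series was larger than the spread between replicates, but the vehicle values rest on 6 and 2 counts. Its log2FC was 2.31 at 2 h (SE 0.444, adjusted p = 0.0177) and 4.67 at 12 h (SE 0.395, adjusted p = 0.00024). Without vehicle replicate 1 these became 3.22 and 5.58. The 2 h call was lost without vehicle replicate 2 (1.79, adjusted p = 0.0857) or either 12 h library (adjusted p = 0.0619 and 0.0621), within a range of 0.00595 to 0.0857 over all alternatives. Mmp15 (17388), encoding MT2-MMP, rose less, by a log2FC of 0.54 at 2 h (SE 0.132, adjusted p = 0.0396) and 0.57 at 12 h (SE 0.132, adjusted p = 0.0131). The 2 h call of Mmp15 was lost with each library left out, with an adjusted p of 0.0666 to 0.17, and its 12 h call without either vehicle library (0.0601 and 0.0702) or without 12 h replicate 2 (0.0989).

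The secreted metalloproteinases outside the chromosome 9 cluster moved in different directions. Mmp11 (17385, chromosome 10, 75385967 to 75400678) encodes stromelysin-3, which is activated by furin inside the cell. Its level was 9.0 and 8.47 CPM with vehicle, 18.4 and 22.3 at 2 h and 34.6 and 38.4 at 12 h, with no overlap between groups. The log2FC was 1.22 at 2 h (SE 0.156, adjusted p = 0.00398) and 2.06 at 12 h (SE 0.157, adjusted p = 0.000168). Mmp28 (118453), encoding epilysin, was the member that rose at 2 h and fell at 12 h. It had 23.1 and 25.3 CPM with vehicle, 39.2 and 43.1 at 2 h and 13.3 and 16.4 at 12 h. The groups did not overlap, and the log2FC was 0.76 at 2 h (SE 0.148, adjusted p = 0.018), -0.71 at 12 h (SE 0.15, adjusted p = 0.00935) and -1.47 between 2 h and 12 h (SE 0.15, adjusted p = 0.000917). Its 2 h call was lost without vehicle replicate 1 (adjusted p = 0.119) or 2 (0.0731), and its 12 h call without vehicle replicate 2 (0.0531) or 12 h replicate 1 (0.0601). Mmp19 (58223) had 12.0 and 7.0 CPM with vehicle, 7.48 and 2.92 at 2 h and 3.09 and 2.51 at 12 h. The vehicle and 2 h libraries overlapped, although the 2 h library was the lower one for each replicate number. The log2FC at 2 h was -0.87 (adjusted p = 0.266, up to 0.366 over the alternatives that left out no replicate). It was -0.91 with the replicate number as a block in the fit (adjusted p = 0.0188). The gene fell at 12 h (log2FC -1.76, SE 0.481, adjusted p = 0.0248). That 12 h call was lost without vehicle replicate 1 (-1.32, adjusted p = 0.123), 12 h replicate 1 (0.109) or 12 h replicate 2 (0.147). Without 2 h replicate 1 its 2 h value was -1.72 (adjusted p = 0.0263). The 2 gelatinases, which cut denatured collagen and type IV collagen, were near the floor. Mmp2 had 2 and 0 counts with vehicle, 4 and 1 at 2 h and 4 and 9 at 12 h. Mmp9 had 0 counts in both vehicle and both 2 h libraries and 6 and 9 at 12 h, where 0 counts allow up to 3 counts per library, or 0.151 to 0.191 CPM in those 4 libraries. These intervals cover counting error only.

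In the chromosome 9 cluster, Mmp10 and Mmp12 were upregulated at 12 h and not at 2 h, Mmp13 did not pass the test against vehicle, and the other 7 genes were at or near 0. Mmp10 (17384, 7502352 to 7510238), encoding stromelysin-2, had 0.71 and 0.83 CPM with vehicle, 1.01 and 0.76 at 2 h and 25.6 and 24.9 at 12 h. The vehicle and 2 h libraries overlapped and both 12 h libraries lay far above them. Its log2FC was 0.21 at 2 h (SE 0.274, adjusted p = 0.74) and 5.03 at 12 h (SE 0.229, adjusted p = 3.77e-05). Mmp12 (17381, 7344381 to 7369499), encoding macrophage elastase, had 0.41 and 0.06 CPM with vehicle, 0.35 and 0.15 at 2 h and 25.8 and 14.4 at 12 h. In counts these were 7, 1, 7 and 3 in the first 4 libraries and 592 and 281 at 12 h. The log2FC was 0.05 at 2 h (SE 0.935, adjusted p = 0.977) and 6.33 at 12 h (SE 0.609, adjusted p = 0.000374). Leaving out vehicle replicate 1 gave 8.17 at 12 h and leaving out vehicle replicate 2 gave 5.59, so the size of this change rests on a few vehicle counts, while its direction and call held. At 2 h the value ran from -0.69 without vehicle replicate 2 to 1.89 without vehicle replicate 1. Mmp13 (17386, 7272514 to 7283333), encoding the main collagenase of rodents, already had 26.2 and 19.9 CPM with vehicle, and then 15.6 and 7.91 at 2 h and 31.7 and 32.4 at 12 h. All 2 h values were below and all 12 h values above the vehicle range. Against vehicle the log2FC was -0.97 at 2 h (SE 0.311, adjusted p = 0.0891, 0.00458 to 0.33 over the alternatives) and 0.48 at 12 h (adjusted p = 0.246, 0.0409 to 0.601), and between 2 h and 12 h it was 1.45 (SE 0.311, adjusted p = 0.0131). The 2 h value passed with DESeq2 (-0.98, adjusted p = 0.0219) and with the replicate number as a block in the fit (-0.996, adjusted p = 0.00764). Without 2 h replicate 1 it was -1.56. The 12 h value passed with only the 2 groups compared (adjusted p = 0.0446) and without 2 h replicate 2 (adjusted p = 0.0409), and the difference between 2 h and 12 h did not pass without either 12 h library (adjusted p = 0.0814 and 0.0821).

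Between these genes lay members with few or no counts. Mmp1a, Mmp20 and Mmp7 had 0 counts in all 6 libraries, and Mmp1b had 3 counts in 12 h replicate 2 and 0 in the others. Annotated exons of Mmp1b and Mmp12 overlap by 157 bases on opposite strands. Mmp3, encoding stromelysin-1, had 10 and 16 counts with vehicle, 21 and 5 at 2 h and 4 and 5 at 12 h. Mmp27 had 14 and 7 counts with vehicle, 12 and 6 at 2 h and 0 in both 12 h libraries, and Mmp8 had at most 4 counts. Thus, of the 5 promoters printed above, those of Mmp10 and Mmp12 belong to genes that rose at 12 h, that of Mmp13 to a gene expressed in all 6 libraries, that of Mmp3 to a gene of at most 21 counts and that of Mmp1a to a gene without counts. Mmp3 and Mmp1a lie between Mmp12 and Mmp10 on the chromosome.

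**Figure D2:**
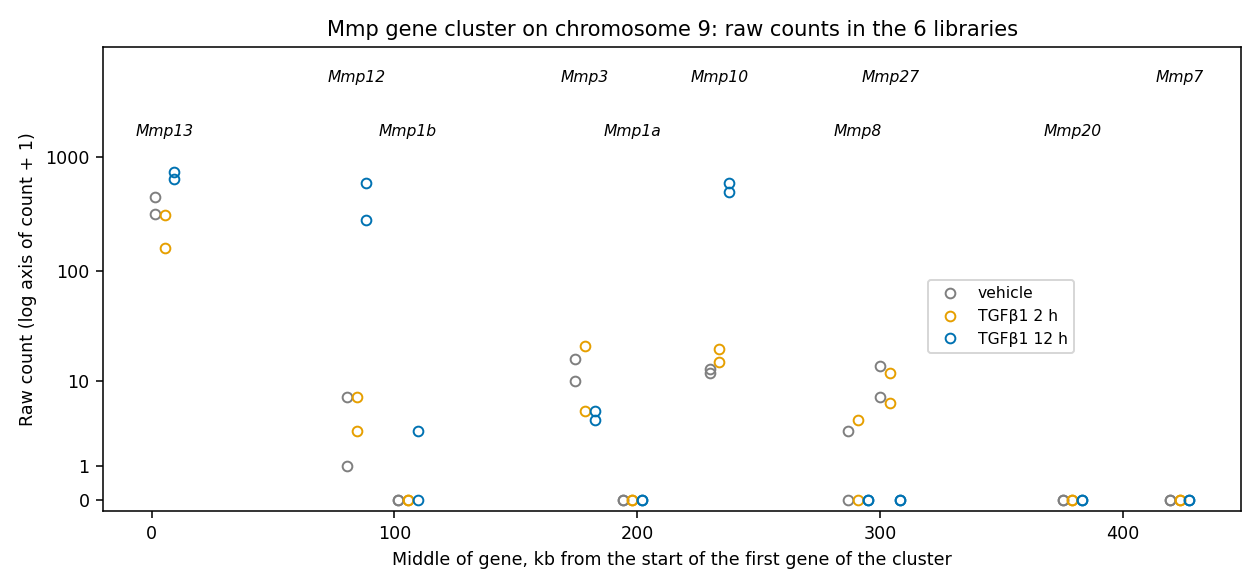
Raw counts per library of the 10 genes of the chromosome 9 Mmp cluster (vertical log axis of count + 1) against the distance of each gene's middle from the start of the cluster in kb, with the points of the 3 groups set apart by 4 kb to be seen. Mmp12 reaches 592 and 281 counts and Mmp10 587 and 486 at 12 h, and the genes between them stay at 21 counts or fewer.

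Of the 7 tested Adam genes, 3 were upregulated at 12 h, Adam17 fell, and Adam9, Adam10 and Adam1a did not pass the test against vehicle. Adam12 (11489, chromosome 7, 141074882 to 141423829), which encodes a metalloprotease known from cell fusion and matrix-related processes, had 0.77 and 1.21 CPM with vehicle, 0.56 and 1.76 at 2 h and 33.8 and 43.2 at 12 h. The 2 h libraries spanned the vehicle range, and the 12 h libraries lay far above it. The log2FC was 0.24 at 2 h (SE 0.548, adjusted p = 0.805) and 5.28 at 12 h (SE 0.470, adjusted p = 0.000284). Without 2 h replicate 2 the 2 h value was -0.81. Adam8 (11501, chromosome 7, 147164831 to 147178461) encodes a sheddase best known from leukocytes. It had 6.53 and 6.56 CPM with vehicle, 30.6 and 39.8 at 2 h and 27.7 and 34.4 at 12 h. Both times lay above vehicle and overlapped each other. The log2FC was 2.43 at 2 h (SE 0.194, adjusted p = 0.000768), 2.25 at 12 h (SE 0.193, adjusted p = 0.000251) and -0.18 between the times (SE 0.176, adjusted p = 0.464). Adam15 (11490, chromosome 3), which encodes a disintegrin-type protein that binds integrins, had 46.9 and 49.3 CPM with vehicle, 72.2 and 78.8 at 2 h and 123 and 133 at 12 h, again with no overlap. Its log2FC was 0.65 at 2 h (SE 0.104, adjusted p = 0.00915) and 1.41 at 12 h (SE 0.105, adjusted p = 0.000158), and the 2 h call was lost without vehicle replicate 1 (0.0781) or 2 (0.0562).

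ADAM10 and ADAM17 are the major sheddases of Notch, cadherin and EGF receptor ligand proteins. Adam10 had 177 and 162 CPM with vehicle, 208 and 159 at 2 h and 203 and 155 at 12 h. The 3 groups overlapped, and the log2FC was 0.11 at 2 h (SE 0.178, adjusted p = 0.713) and 0.08 at 12 h (SE 0.178, adjusted p = 0.751). Adam17 (11491, chromosome 12, 21329370 to 21379493) had 92.0 and 100.3 CPM with vehicle, 90.6 and 86.9 at 2 h and 57.8 and 61.2 at 12 h. The 12 h libraries lay below all others, with a log2FC of -0.12 at 2 h (SE 0.0995, adjusted p = 0.483) and -0.69 at 12 h (SE 0.100, adjusted p = 0.00201). Adam9, another broadly expressed sheddase, had a log2FC of 0.17 at 2 h and -0.35 at 12 h (SE 0.120, adjusted p = 0.053, 0.0126 to 0.197 over the alternatives), and it was lower at 12 h than at 2 h (-0.53, SE 0.120, adjusted p = 0.0163). Its 12 h value against vehicle passed with DESeq2 (0.0237), with library totals (0.0126), with only the 2 groups compared (0.0156), and without 2 h replicate 1 (0.0153) or 2 (0.0192), and the difference between 2 h and 12 h did not pass without 12 h replicate 1 (0.102) or 2 (0.11). With the replicate number as a block in the fit, Adam9 also passed at 12 h against vehicle (adjusted p = 0.0162). Adam1a, a germ cell gene in the mouse, stayed at 1.72 to 2.38 CPM in all libraries (log2FC 0.13 and -0.05), and it shares 771 exon bases with Mapkapk5 on the same strand.

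**Figure D3:**
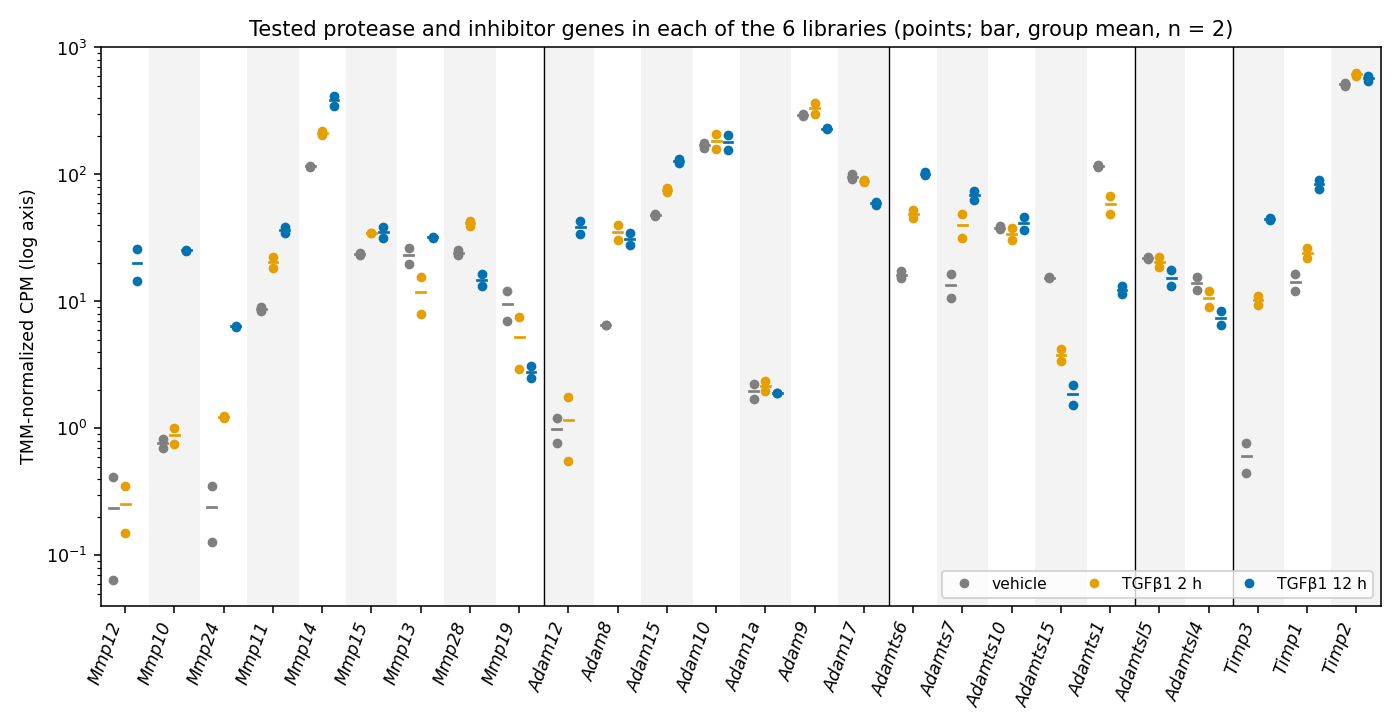
TMM-normalized CPM (vertical log axis) of the 26 tested members in each of the 6 libraries, with 1 column per gene, 1 point per library in the color of its group and a bar at the group mean (n = 2), the families set apart by vertical lines. Timp3 goes from under 1 CPM with vehicle to 11.02 and 9.38 at 2 h and 45.3 and 44.2 at 12 h, whereas Adamts1 goes from 114 and 119 down to 11.5 and 13.3.

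The 5 tested Adamts genes split into a pair that rose, a pair that fell and Adamts10. Adamts6 (108154, chromosome 13, 105077953 to 105284843), which is related to Adamts10 and acts on the fibrillin matrix, had 15.3 and 17.3 CPM with vehicle, 52.6 and 45.7 at 2 h and 104 and 99.1 at 12 h. Adamts7 (108153, chromosome 9, 90057816 to 90102909), whose product cuts cartilage oligomeric matrix protein, had 10.7 and 16.4, 31.8 and 48.8, and 63.1 and 74.6 CPM in the same order. In neither gene did any group overlap another. The log2FC of Adamts6 was 1.59 at 2 h (SE 0.1252, adjusted p = 0.000725) and 2.64 at 12 h (SE 0.128, adjusted p = 4.68e-05). That of Adamts7 was 1.58 at 2 h (SE 0.274, adjusted p = 0.0122) and 2.35 at 12 h (SE 0.277, adjusted p = 0.000848), and its 2 h call was lost without vehicle replicate 1 (1.30, adjusted p = 0.0656).

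Adamts1 and Adamts15, which both encode enzymes that cut the proteoglycans aggrecan and versican, were downregulated at both times. Adamts1 (11504, chromosome 16, 85794072 to 85803358) had 114 and 119 CPM with vehicle, 67.9 and 48.7 at 2 h and 11.5 and 13.3 at 12 h. Adamts15 (235130, chromosome 9, 30706740 to 30730037) had 15.5 and 15.3 CPM with vehicle, 3.39 and 4.23 at 2 h and 1.52 and 2.21 at 12 h. The groups of each gene were separate at every step. Adamts1 had a log2FC of -1.0015 at 2 h (SE 0.170, adjusted p = 0.0111) and -3.24 at 12 h (SE 0.187, adjusted p = 6.67e-05), and its 2 h call was lost without vehicle replicate 1 (0.0557) or 2 (0.061). Adamts15 had -2.01 at 2 h (SE 0.235, adjusted p = 0.0029) and -3.05 at 12 h (SE 0.251, adjusted p = 0.000217). Between 2 h and 12 h Adamts15 fell further (log2FC -1.04, SE 0.253, adjusted p = 0.0208), a call that was lost without 2 h replicate 2 (-0.87, adjusted p = 0.0682) or 12 h replicate 1 (-0.79, adjusted p = 0.117), or with only the 2 groups compared in the fit (adjusted p = 0.0547). Adamts10 had a log2FC of -0.16 at 2 h (adjusted p = 0.581) and 0.12 at 12 h (adjusted p = 0.589, and -0.01 with library totals in place of TMM factors), and its vehicle libraries lay within the range of the 12 h libraries. Of the Adamts-like genes, Adamtsl4, which acts on fibrillin fibers, fell at 12 h by 0.90 on the log2 scale (SE 0.234, adjusted p = 0.0203). That call was lost without vehicle replicate 2 (0.113), 12 h replicate 1 (0.122) or 12 h replicate 2 (0.0504). Adamtsl5 had a log2FC of -0.10 at 2 h and -0.51 at 12 h (adjusted p = 0.0612). Its 12 h value passed with library totals (0.0337), with only the 2 groups compared (0.0373) and with the replicate number as a block in the fit (0.0113). With each library left out, its 12 h log2FC ran from -0.75 to -0.34.

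Of the 4 inhibitor genes, Timp1 and Timp3 rose at both times, Timp2 did not pass the test and Timp4 was at 1 count or fewer. Timp3 (21859, chromosome 10, 85763117 to 85812251) had 0.77 and 0.45 CPM with vehicle, 11.02 and 9.38 at 2 h and 45.3 and 44.2 at 12 h. Its groups were far apart, and its log2FC of 4.05 at 2 h (SE 0.248, adjusted p = 0.000326) was the largest of the 26 members at that time. At 12 h it was 6.18 (SE 0.246, adjusted p = 3.34e-05), and between 2 h and 12 h it was 2.13 (SE 0.179, adjusted p = 0.000515). Timp1 (21857, chromosome X, 20447292 to 20451861) had 12.2 and 16.5 CPM with vehicle, 21.9 and 26.2 at 2 h and 77.4 and 90.1 at 12 h. The groups did not overlap, and the log2FC at 2 h was 0.75 (SE 0.184, adjusted p = 0.0396, 0.00146 to 0.192 over the alternatives). The 2 h call of Timp1 was lost without vehicle replicate 1 (0.55, adjusted p = 0.192), 2 h replicate 2 (0.102), or 12 h replicate 1 (0.0917) or 2 (0.0925). At 12 h Timp1 rose by a log2FC of 2.55 (SE 0.187, adjusted p = 0.000151). Timp2 (21858, chromosome 11) had 496 and 529 CPM with vehicle, 598 and 632 at 2 h and 545 and 600 at 12 h. The treated libraries lay above the vehicle libraries at both times, yet the log2FC was 0.26 at 2 h (SE 0.105, adjusted p = 0.153) and 0.16 at 12 h (SE 0.105, adjusted p = 0.266), which missed the threshold. Timp1, Timp3 and Timp4 overlap the synapsin genes Syn1, Syn3 and Syn2 on the opposite strand, and the counts were made by strand.

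To set genes beside each other, CPM were divided by the length of the merged exons in kb (CPM per kb). With vehicle Timp2 was the highest member by this level (132 ± 6.08, SD, n = 2), followed by Adam9 and Mmp14 (44.6 ± 0.650). At 12 h Mmp14 (148 ± 18.8) and Timp2 (147 ± 9.93) were within their spread of each other, and Timp1 came next at 94.3 ± 10.1. The summed level of the 23 Mmp genes was 74.9 and 70.5 CPM per kb with vehicle, 120 and 111 at 2 h and 191 and 220 at 12 h, and Mmp14 held 60.2% to 73.1% of it. The sum of the 4 Timp genes was 141 and 155, 180 and 193, and 233 and 261 CPM per kb. Thus both sums were higher at each later time. The ratio of the Timp sum to the Mmp sum was 1.88 and 2.19 with vehicle, 1.49 and 1.74 at 2 h and 1.22 and 1.19 at 12 h, with no overlap between groups (3 groups of 2 libraries, no test). This order depends on Timp2 and Mmp14. Without Timp2 the ratio was 0.184 and 0.265 with vehicle, 0.217 and 0.276 at 2 h and 0.485 and 0.486 at 12 h, so that it was highest at 12 h. Without Mmp14 it was 4.73 and 5.87, 5.11 and 5.91, and 4.08 and 4.41, and the vehicle and 2 h libraries overlapped. Timp2 held 90.2% and 87.9% of the Timp sum with vehicle and 60.1% and 59.0% at 12 h, where Timp1 and Timp3 made up the rest. The sum of the Adam genes was 134 and 130 CPM per kb with vehicle, 165 and 142 at 2 h and 138 and 133 at 12 h, so that it was highest at 2 h. That of the Adamts genes was 36.0 and 38.4, 34.7 and 34.1, and 40.7 and 43.8, lowest at 2 h. These are levels of RNA and not of protein or enzyme activity.

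**Figure D4:**
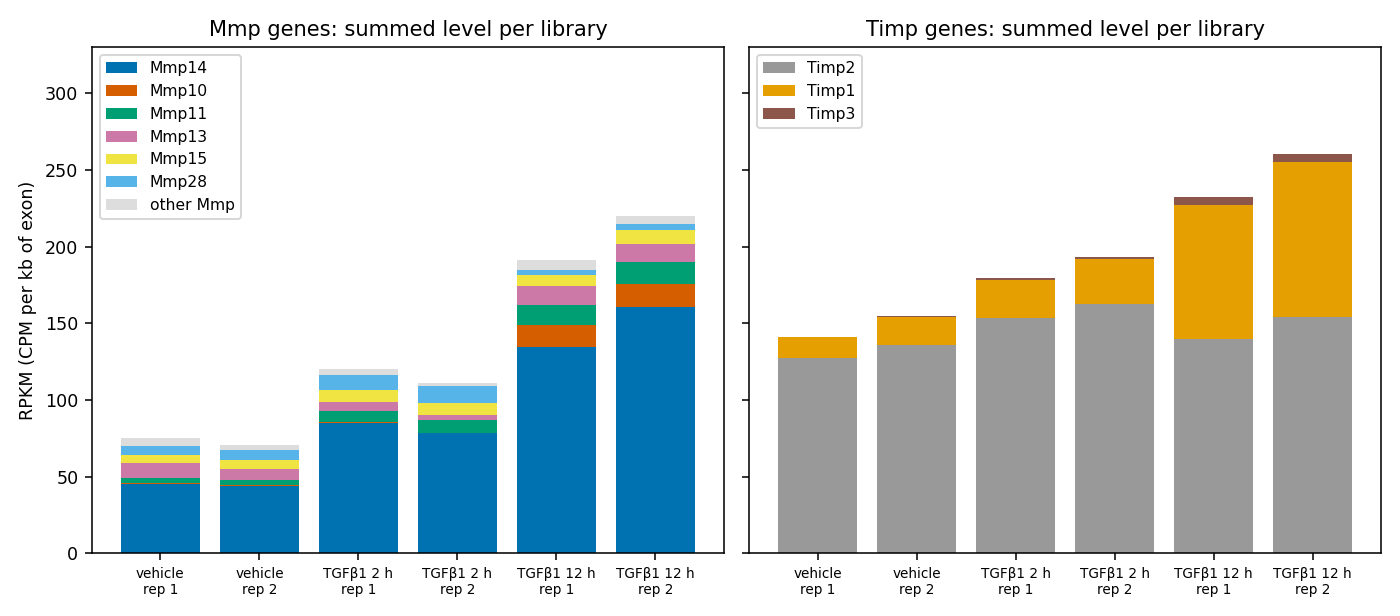
Summed level of the Mmp genes (left) and the Timp genes (right) in CPM per kb of merged exons (vertical axis, from 0), 1 stacked bar per library with the part of each gene in its own color. The Mmp sum goes from 74.9 and 70.5 with vehicle to 191 and 220 at 12 h, and the Timp sum from 141 and 155 to 233 and 261.

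The other 58 members were below the filter, 24 with 0 counts in all 6 libraries and 34 with some, at most 180 over all libraries. The 24 were 13 Adam, 6 Adamts, 1 Adamtsl and 4 Mmp genes, many of the Adam genes being known from the testis. Among the 34, the 6 with the most counts were Adamtsl3, Adamts13, Adam23, Adamts16, Adamts12 and Adam32. Adamts16 had 0 and 1 counts with vehicle, 4 and 9 at 2 h and 49 and 40 at 12 h. Adamts12 had 5 and 5, 3 and 6, and 42 and 42 counts in the same order. Both were separate from vehicle at 12 h, and in the fit without a filter the adjusted p at 12 h was 0.000454 for Adamts16 and 0.00201 for Adamts12. Adamtsl3 had 13 and 16, 37 and 36, and 41 and 37 counts, with an adjusted p of 0.0939 at 2 h and 0.0429 at 12 h in that fit. Adam23 went the other way, with 20 and 25, 18 and 36, and 2 and 3 counts (adjusted p at 12 h 0.00221), as did Adam32 with 28 and 18, 23 and 16, and 9 and 4 counts (0.00961). Outside these 6, Adamtsl2 had 0 and 1 counts with vehicle, 7 and 24 at 2 h and 25 and 30 at 12 h, and it passed in that fit at 2 h (adjusted p = 0.0335) and 12 h (0.0042). Mmp27 (0.00665) and Mmp9 (0.0468), whose counts are given above, passed in it at 12 h. Adamts13, which cuts von Willebrand factor, had 15 and 8, 26 and 21, and 28 and 15 counts (0.469).

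Genes whose products act with these enzymes are set here beside the shares of all genes tested that rose and fell, 9.91% and 5.25% at 2 h and 21.8% and 21.5% at 12 h. Of 17 partner genes (proprotein convertases, iRhoms, TspanC8 tetraspanins and others), 12 passed the filter, and 4 rose and 0 fell at 2 h, while 4 rose and 4 fell at 12 h. Furin, the convertase that activates many of these proteases, had 101.5 and 136 CPM with vehicle, 373 and 340 at 2 h and 391 and 315 at 12 h. Its log2FC was 1.58 at 2 h (adjusted p = 0.0025) and 1.57 at 12 h (adjusted p = 0.000726). Rhbdf1, which encodes an iRhom needed for the transport of ADAM17, had a log2FC of 1.17 (adjusted p = 0.00148) and 1.04 (adjusted p = 0.000601). At 12 h Pcsk6, a further convertase, fell from 48.1 and 51.4 to 7.18 and 6.52 CPM (log2FC -2.86, adjusted p = 3.69e-05). The tetraspanin genes Tspan15 and Tspan5, whose products guide ADAM10, had a log2FC of -2.48 (adjusted p = 0.000208) and -1.44 (adjusted p = 0.000949) at 12 h. Of the other tetraspanins of this group, Tspan14 rose at 2 h (log2FC 0.56, adjusted p = 0.0244) and 12 h (0.54, adjusted p = 0.0101), and Tspan17 did not pass at 12 h (0.16, adjusted p = 0.326).

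Related proteases and substrates are read against the same shares, 9.91% and 5.25% at 2 h and 21.8% and 21.5% at 12 h. Of 10 other metzincins and related genes 3 passed the filter, and 1 rose and 0 fell at 2 h, while 1 rose and 2 fell at 12 h. Bmp1, the procollagen C-proteinase, had 81.3 and 86.8 CPM with vehicle, 154 and 178 at 2 h and 437 and 483 at 12 h, a log2FC of 0.98 and 2.45 (adjusted p = 0.00324 and 4.9e-05). Mep1a, encoding meprin α, went from 49.0 and 41.3 CPM with vehicle to 1.18 in both 12 h libraries (log2FC -5.25, adjusted p = 3.16e-05), and Papln had a log2FC of -3.86 at 12 h (adjusted p = 0.000544). Of 17 genes for proteins known to be shed, 14 passed, and 1 rose and 1 fell at 2 h, while 6 rose and 5 fell at 12 h. Notch1 had 233 and 248 CPM with vehicle, 111 and 125 at 2 h and 23.9 and 24.4 at 12 h, a log2FC of -1.03 (adjusted p = 0.00179) and -3.32 (adjusted p = 3.16e-05). Notch2 had 342 and 321, 809 and 785, and 449 and 456 CPM, a log2FC of 1.27 at 2 h (adjusted p = 0.000696) and 0.45 at 12 h (adjusted p = 0.00978). Among the EGF receptor ligands, Hbegf had a log2FC of 1.31 (adjusted p = 0.000711) and Btc of -1.89 (adjusted p = 0.0137) at 12 h. Of 9 substrate genes of the ADAMTS enzymes 2 passed, of which 1 rose and 0 fell at 2 h and both rose at 12 h. Vcan, which encodes the proteoglycan versican, had 35.9 and 27.6 CPM with vehicle, 44.1 and 38.2 at 2 h and 70.8 and 60.9 at 12 h (log2FC 0.37 and 1.05, adjusted p = 0.188 and 0.00271). Col1a1, a chain of type I collagen, had a log2FC of 2.59 at 2 h (adjusted p = 0.00492) and 3.51 at 12 h (adjusted p = 0.000436).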

How the data were processed

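The data are stranded total RNA-seq of NMuMG cells. The authors aligned 50-base reads to mm9 with Subread, removed duplicates and counted unique reads on exons by strand with featureCounts. They deposited raw counts of 21240 genes without normalization. Counts were tested in R 4.3.3 with edgeR 4.0.16 (TMM factors, quasi-likelihood test, 1 fit of 3 groups of 2 libraries, two-sided), for genes that reached 2 CPM in 2 or more libraries, with Benjamini-Hochberg adjustment within each contrast and a threshold of 0.05. Each log2FC was divided by the root of its F statistic to give the standard error. Named with values by rule were members past the filter, Mmp2, Mmp9, the Timp genes, the 6 most counted members below it, and genes of the partner, metzincin and substrate lists past both thresholds (0.05 and a log2FC of 1 either way). The other genes of the chromosome 9 cluster, Adamtsl2, Tspan14, Tspan17 and the cell type markers were named after their values were seen. Members and lists were chosen with earlier results of these data known. Positions and exon lengths came from GENCODE M1 (83 members matched by symbol, 1 not), which may differ from the gene models of the counts. Depth was 14705886 to 23786993 counts, and vehicle replicates differed by a median absolute log2 of 0.128 over members, those at 2 h by 0.281 and those at 12 h by 0.229. Because nothing in the labels ties replicates to separate days, p-values measure the spread between these libraries. In counts simulated for each contrast, edgeR called 146 of 198 genes with a planted log2 change of 1 at 2 h. At 12 h it called 159 of 198. How often edgeR would call a change of this size among the members was not tested. Alternatives were limma-voom (limma 3.58.1), DESeq2 1.42.0, DESeq2 size factors in edgeR, library totals, a minimum of 10 counts per library, no filter, a replicate block, only the 2 groups compared, a prior count of 2 and each library left out. Where a group is left with 1 library, that library is assumed to vary like the other groups. Plots were drawn with matplotlib 3.10.9 in Python 3.11.15.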

Additional observations from a re-analysis of the deposited data

Results flagged for a closer look

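For 16 of the 26 tested members the level at 12 h of TGFβ differed from that at 2 h by the direct test, in which the time without serum and insulin differs too (edgeR's quasi-likelihood test, Benjamini-Hochberg adjusted p under 0.05). Higher at 12 h than at 2 h were 11 members, with a log2FC between the times of 6.28 for Mmp12, 5.04 for Adam12, 4.83 for Mmp10, 2.36 for Mmp24, 2.13 for Timp3, 1.80 for Timp1, 1.45 for Mmp13, 1.05 for Adamts6, 0.85 for Mmp14, 0.84 for Mmp11 and 0.76 for Adam15. Of these, Mmp12, Adam12, Mmp10 and Mmp24 reached the filter only in the 12 h libraries. They had to be higher at 12 h than at 2 h to be tested at all, so their values are a description. Lower at 12 h were 5, with -2.23 for Adamts1, -1.47 for Mmp28, -1.04 for Adamts15, -0.58 for Adam17 and -0.53 for Adam9. For Adam12 the value was 4.44 without 2 h replicate 1 and 6.10 without 2 h replicate 2, and for Mmp12 it was 6.998 without 2 h replicate 1. Without 12 h replicate 1 the difference did not pass for Adam17 (adjusted p = 0.0603), Adam9 (0.102), Mmp13 (0.0814) and Adamts15 (0.117), and without 12 h replicate 2 it did not pass for Mmp11 (0.0587), Adam9 (0.11) and Mmp13 (0.0821). Adamts15 also missed without 2 h replicate 2 (0.0682). Among all genes tested, 15.2% were higher and 18.9% lower by the same test.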

How the results depend on the processing

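Of the 6 counts of called members, those of members higher at 12 h and between 2 h and 12 h stayed within 1.5 times their value under all alternatives run. Without a filter 8 members were lower at 12 h than at 2 h in place of 5, because more members were tested. With the replicate block 8 members were lower at 12 h than at 2 h and 4 were lower at 2 h than with vehicle, in place of 5 and 2, the latter with Mmp13 (adjusted p = 0.00764) and Mmp19 (0.0188) added. The block also brought Adam9 (0.0162) and Adamtsl5 (0.0113) past the threshold at 12 h. The labels give the libraries only a shared number, and same-numbered libraries deviated from their group means together, with Pearson's r over 11080 genes of 0.708 for the vehicle and 2 h libraries, 0.263 for vehicle with 12 h and 0.392 for both treated groups. With each library left out, 6 to 10 members were higher and 1 to 4 lower at 2 h, 12 to 14 higher and 3 to 8 lower at 12 h, and 9 to 12 higher and 2 to 5 lower between the times, from 11 and 2, 13 and 6, and 11 and 5. The lowest of these for higher at 2 h was without vehicle replicate 1, which left 6, while vehicle replicate 2 left 7. Without either of them 1 member was lower at 2 h, and without 2 h replicate 1 it was 4. Lower at 12 h were 3 without 12 h replicate 1 and 4 without vehicle replicate 2, and between the times 2 without 12 h replicate 1. Library totals in place of TMM factors shifted the median log2FC of all genes by -0.11 at 2 h and -0.13 at 12 h, and under them Mmp12 at 2 h (-0.058), Adam10 at 12 h (-0.050) and Adamts10 at 12 h (-0.0069) changed sign. The other sign changes came with a library left out, all in values that passed no threshold. Over the libraries left out, the 2 h log2FC ran from -0.042 to 0.34 for Adam1a, -0.81 to 0.83 for Adam12, -0.69 to 1.89 for Mmp12, -0.035 to 0.40 for Mmp10, -0.11 to 0.29 for Adam10 and -0.23 to 0.0099 for Adamtsl5. The 12 h log2FC ran from -0.23 to 0.15 for Adam1a, -0.15 to 0.25 for Adam10 and -0.076 to 0.27 for Adamts10. Beside the libraries left out, the 2 h calls of Timp1 were lost with limma-voom (adjusted p = 0.0515), and those of Timp1 and Mmp15 with library totals (0.0717 and 0.0784) and with only the 2 groups compared (0.105 and 0.0694), which also ended that of Mmp24 (0.0799) and the call of Adamts15 between 2 h and 12 h (0.0547). Where no cause is named, the cause was not tested. Members with 0 counts in a library may still have up to 3 counts at this depth.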
